A study of Homo sapiens with 16 samples.

Results

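NR4A1, NR4A2 and NR4A3 form the NR4A family of orphan nuclear receptors. They were found by their Ensembl identifiers (ENSG00000123358, ENSG00000153234 and ENSG00000119508) among the 64792 identifiers of the deposited count table, and all 3 were among the 14690 genes that passed the filter on low counts and were tested. NR4A3 was singled out because it had 1 of the largest falls when lactate-treated cells were set against control cells, and the other two were added as its relatives. Values of that comparison are therefore given for all 3 genes as a description with no test.

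RNA was sequenced from DU145, an established human prostate cancer cell line, in 4 groups of 4 replicates: untreated control cells, cells given lactate, cells given I-BET762, and cells given both agents. I-BET762 keeps BET proteins from docking on acetylated histones by occupying their bromodomains, and lactate is the end product of glycolysis. Replicates are described as independent in the labels, where neither agent has a dose or a duration. The cell line field of the 4 samples given both agents carries line numbers other than that of their DU145 titles, and the titles were followed.

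Members of the NR4A family are immediate early transcription factors: their transcripts are made within minutes of signals such as cyclic AMP, calcium or growth factors, through CREB, MEF2 and serum response factor at their promoters. Their ligand-binding pocket is filled by bulky side chains, so that their activity is set mainly by how much protein the cell makes and how it is modified. They bind the element called NBRE as monomers, related palindromes as dimers, and NR4A1 and NR4A2 also pair with the retinoid X receptor. In muscle and liver they are known as regulators of glucose and lipid metabolism.

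Total counts per library ran from 10711859 in lactate replicate 1 to 17173584 in lactate replicate 3. NR4A1 had 708 to 1766 counts in a library, NR4A2 had 233 to 1182 and NR4A3 had 131 to 933. HEXIM1, whose transcript is known to go up when BET proteins are inhibited, went against the labels of 2 libraries: it stood at 135 counts per 1000000 (CPM) in the library labelled as control replicate 2, where the other controls had at most 77.4 CPM, and at 89.6 CPM in the library labelled I-BET762 replicate 2, below the 113 to 149 CPM of the rest of that group. Results were therefore also computed without both libraries. Lactate replicate 1 stood apart from the other lactate libraries: chi-square per gene between its counts and theirs was 72.0 to 166, beside 12.3 to 45.2 among those 3 and 2.07 to 24.0 within the other groups. The epithelial markers KRT8, KRT18, KRT19, EPCAM and CDH1 were present in all 16 libraries, whereas KLK3 had at most 1 count in a library and KRT5 had 0. The 10 markers of other cell types summed to 5.12 to 6.29 CPM in control, 7.83 to 11.6 CPM with lactate, 5.67 to 10.3 CPM under I-BET762 and 8.59 to 12.7 CPM under both, with CD3E and DCN at 0 counts in every library. The sums with lactate lay above those in control, whereas those under both agents overlapped those under I-BET762 alone. COL1A1 alone ran from 3.15 to 9.63 CPM over the libraries. The part of these sums in the results was not tested.

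The receptors are encoded on 3 chromosomes of GRCh38. NR4A1 lies on chromosome 12 (52022832 to 52059507, plus strand), NR4A2 on chromosome 2 (156324432 to 156342348, minus strand) and NR4A3 on chromosome 9 (99821855 to 99866891, plus strand), by GENCODE release 29. Their coding sequences are alike enough for shared reads to be a question, so the stretch of 60 coding bases that is most alike in all 3 is shown here, with the positions that differ in capitals. It codes for part of the DNA-binding domain, and 47 of its 60 bases are the same in all 3 genes.
NR4A1: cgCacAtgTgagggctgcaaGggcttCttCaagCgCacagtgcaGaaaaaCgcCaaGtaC
NR4A2: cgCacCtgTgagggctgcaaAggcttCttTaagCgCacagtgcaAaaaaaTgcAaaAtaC
NR4A3: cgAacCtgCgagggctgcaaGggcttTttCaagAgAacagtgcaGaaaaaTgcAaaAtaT
The stretch starts at coding base 1006 of NR4A1, 832 of NR4A2 and 952 of NR4A3, read from the GENCODE transcripts. Over their whole aligned coding sequences NR4A1 and NR4A2 were identical at 70.8% of bases, NR4A1 and NR4A3 at 68.9%, and NR4A2 and NR4A3 at 71.7%. The longest run shared by any pair was 20 bases, and no run of 75 bases, the read length, was shared between any pair in their annotated transcripts. A full-length read that matches its gene exactly can therefore be assigned to 1 member of the family. NR4A1 did share 8.45% of its runs of 75 bases with NR4A1AS, an antisense gene that overlaps it, but NR4A1AS had at most 2 counts in a library.

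The sequence before the start of NR4A3 is shown because this gene was the one chosen for its fall with lactate and because its promoter is known as a CREB target. These are the 250 bases before the RefSeq start, chr9:99821635-99821884 on the plus strand of GRCh38.p14, with each match to TGACG or its reverse complement CGTCA, the core of the cyclic AMP response element bound by CREB, in capitals. The GENCODE start of the gene falls near the end of this stretch.
NR4A3: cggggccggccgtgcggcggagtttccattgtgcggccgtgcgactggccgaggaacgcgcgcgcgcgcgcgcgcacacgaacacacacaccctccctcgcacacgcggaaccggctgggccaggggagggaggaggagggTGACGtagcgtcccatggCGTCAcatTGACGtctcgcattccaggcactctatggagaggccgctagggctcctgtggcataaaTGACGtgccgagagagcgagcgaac
The window that runs 250 bases before to 50 bases after the start held 4 such matches, beginning 109, 91, 83 and 25 bases before it. Of 35116 RefSeq windows of the same length, 24.6% held at least 1 match on either strand and 110 (0.313%) held 4 or more. The window had no full element TGACGTCA, which 1.85% of windows hold, and no NBRE match AAAGGTCA, which 1.22% hold. The 2 RefSeq windows of NR4A1 (chr12:52022582-52022881 and chr12:52037465-52037764) had no match to any of these 3 motifs. The gene runs on to 52059507, and any start beyond these 2 windows was not searched. The absence of matches therefore holds for these windows only, not for every promoter of NR4A1. Each TGACGTCA also counts as a match to the shorter motif, and a match is a run of letters, not a measured binding site. No window was matched for NR4A2, so its promoter was not searched. A link between such matches and the levels with lactate was not tested.

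NR4A3, which is known in muscle for its response to adrenergic signals, was expressed at 48.9, 40.4, 50.6 and 48.9 CPM in control replicates 1 to 4. With lactate it stood at 13.3, 23.0, 22.4 and 15.6 CPM. All 4 lactate libraries lay below all 4 controls, and the highest of them did not come near the lowest control. With I-BET762 alone the levels were 42.5, 46.0, 53.9 and 58.0 CPM, and with both agents 17.3, 19.4, 24.7 and 25.2 CPM. The I-BET762 libraries overlapped the controls, and the libraries given both agents again lay below every library that had no lactate.

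NR4A2, known as Nurr1 and required for midbrain dopamine neurons, had 75.1, 51.7, 47.7 and 55.0 CPM in control replicates 1 to 4. With lactate it had 46.4, 36.8, 18.8 and 17.3 CPM. The lactate libraries split: replicate 1 lay just under the lowest control, whereas replicates 3 and 4 were far below it. I-BET762 alone gave 56.6, 69.8, 48.6 and 51.8 CPM, and both agents gave 23.9, 23.8, 17.7 and 19.1 CPM. Under the inhibitor the split was gone, and the 4 libraries with lactate lay close together and well below the 4 without it.

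NR4A1, known as Nur77, is the member most often studied as an early response gene and as a regulator of cell death. Its levels were 66.2, 83.4, 46.5 and 80.5 CPM in control and 92.0, 65.6, 83.5 and 88.6 CPM with lactate. With I-BET762 they were 96.0, 104, 85.7 and 88.6 CPM, and with both agents 62.9, 75.9, 83.2 and 121 CPM. The lactate libraries overlapped those without lactate both with and without the inhibitor, and replicate 4 of the group given both agents was the highest of the 16 libraries.

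**Figure D1:**
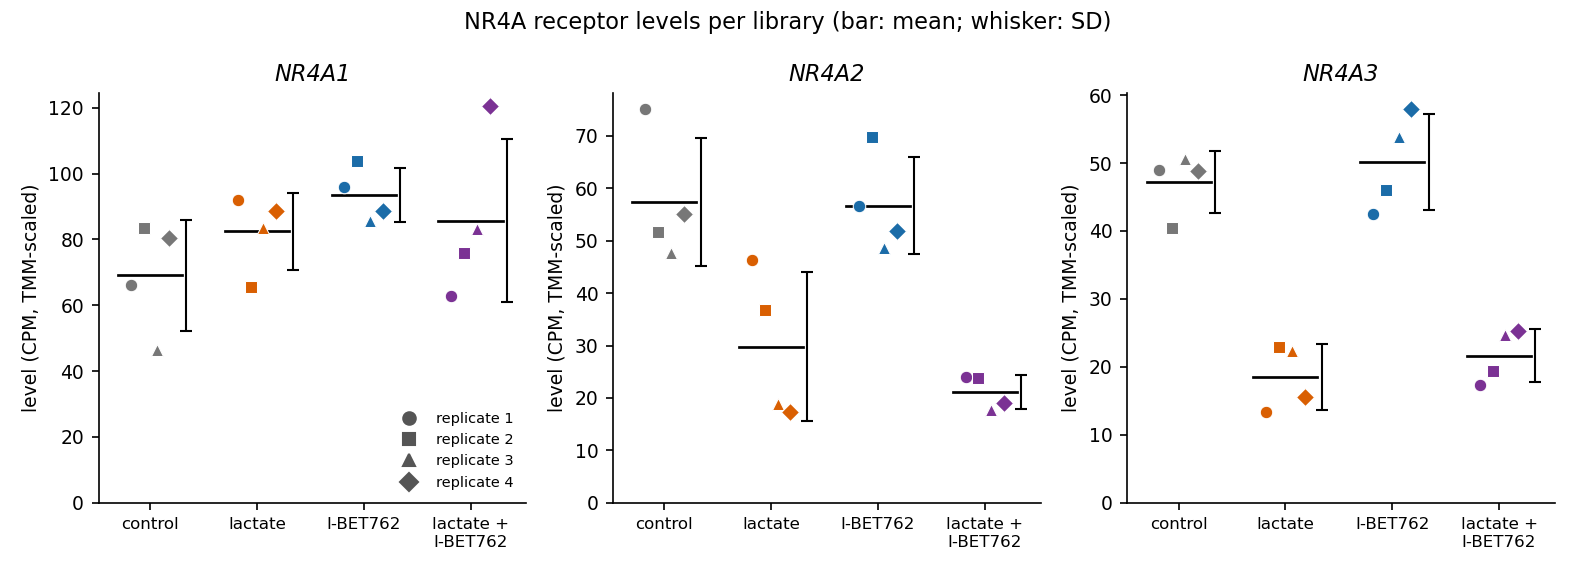
Level of each NR4A receptor (y axis, CPM on TMM-scaled library sizes, starting at 0) in the 4 groups (x axis), with 1 point per library, its shape giving the replicate number, a bar at the mean and a whisker for the SD. NR4A2 and NR4A3 are lower in both groups given lactate, while the lactate libraries of NR4A1 overlap those without lactate.

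The question of whether lactate lowered these receptors could be tested in the 8 libraries that had no part in choosing NR4A3, those given I-BET762 with or without lactate. There NR4A3 fell to 43.2% of its mean level, from 50.1 ± 7.08 CPM to 21.7 ± 3.91 CPM (SD, n = 4 each), a log2 fold change of -1.21 (SE 0.17) with an adjusted p of 0.000761 in edgeR's quasi-likelihood test with Benjamini-Hochberg adjustment over all genes. NR4A2 fell to 37.3%, from 56.7 ± 9.32 CPM to 21.1 ± 3.21 CPM (SD, n = 4 each), a log2 fold change of -1.42 (SE 0.26) with an edgeR adjusted p of 0.0048. NR4A1 had means of 93.5 ± 8.11 CPM and 85.7 ± 24.8 CPM (SD, n = 4 each), a log2 fold change of -0.13 (SE 0.19, edgeR adjusted p 0.783, 95% interval -0.54 to 0.29). Its value was -0.34 without replicate 4 given both agents and -0.0045 without replicate 1 of that group, and -0.07 without replicate 2 of that group or I-BET762 replicate 2. The spread per gene in this test was estimated from all 16 libraries, those that chose NR4A3 included. With the 2 groups fitted alone, the edgeR adjusted p was 0.000296 for NR4A3, 9.6e-05 for NR4A2 and 0.603 for NR4A1. Thus 2 of the 3 receptors passed the test as lower, in a comparison in which 1.57% of all tested genes did. In both of them the 4 libraries with lactate lay below the 4 without it, as in 11.3% of all tested genes. Because NR4A3 was chosen for its fall with lactate in other libraries, these shares of all genes are not a fair yardstick for it. In bulk RNA, fewer cells that express a gene and less RNA per cell cannot be told apart.

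NR4A2 and NR4A3 lay among the lowest log2 fold changes of this comparison. Their ranks are a description only, because NR4A3 was chosen for its fall with lactate in other libraries. The members were also chosen with earlier results of these data known. Of the 14690 genes tested, 34 had a lower log2 fold change than NR4A2, and 15 of those passed the test. For NR4A3, 65 genes had a lower log2 fold change and 27 of them passed. By p-value NR4A3 stood at rank 43, NR4A2 at rank 112 and NR4A1 at rank 9707. Both calls held under all 27 alternative settings, with log2 fold changes from -1.49 to -1.31 for NR4A2 and from -1.29 to -1.12 for NR4A3.

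Without the inhibitor the levels of the same 3 genes are given without a test, because NR4A3 was chosen on them. NR4A3 had a mean of 47.2 ± 4.60 CPM in control and 18.5 ± 4.84 CPM with lactate (SD, n = 4 each), which is 39.3% of the control level and a log2 fold change of -1.34 (SE 0.18). NR4A2 had 57.4 ± 12.2 CPM and 29.8 ± 14.1 CPM, a log2 fold change of -0.95 (SE 0.25), and NR4A1 had 69.1 ± 16.9 CPM and 82.4 ± 11.7 CPM, a log2 fold change of 0.25 (SE 0.19). The libraries of the groups did not overlap for NR4A2 and NR4A3, nor, with the lactate libraries lower, for 9.12% of all tested genes, and 10.1% of all genes passed the test as lower. The value of NR4A2 depended on which lactate library was left out: it was -1.24 without replicate 1 and -0.77 without replicate 4. That of NR4A1 was 0.10 without control replicate 3, and that of NR4A3 was -1.22 without lactate replicate 1. With both agents against control, which uses the same controls, the log2 fold changes were 0.31 (SE 0.19) for NR4A1, -1.44 (SE 0.26) for NR4A2 and -1.12 (SE 0.17) for NR4A3. The value of NR4A1 came down to 0.16 without control replicate 3 and to 0.10 without replicate 4 given both agents.

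The inhibitor itself gave smaller differences. For I-BET762 against control, NR4A1 had 93.5 CPM against 69.1 CPM, a log2 fold change of 0.44 (SE 0.19, 95% interval 0.02 to 0.85), and did not pass the edgeR test after adjustment (adjusted p 0.371, unadjusted p 0.0361). The lowest I-BET762 library, at 85.7 CPM, was just above the highest control, as for 7.73% of all tested genes. NR4A2 had a log2 fold change of -0.02 (SE 0.25, edgeR adjusted p 0.989), with a 95% interval of -0.56 to 0.53 that leaves room for a change in either direction. NR4A3 had a log2 fold change of 0.09 (SE 0.17), given with no test because the controls entered its choice. In this comparison 0.442% of all tested genes passed, all of them higher. With GC content and exon length corrected, the value of NR4A1 came down to 0.19, and without control replicate 3 it was 0.29.

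In lactate-treated cells, adding the inhibitor gave NR4A1 a log2 fold change of 0.06 (SE 0.19, 95% interval -0.36 to 0.47, edgeR adjusted p 0.893) and NR4A2 one of -0.49 (SE 0.26, 95% interval -1.05 to 0.07, edgeR adjusted p 0.353). NR4A3 had 0.22 (SE 0.18), with no test. No gene at all passed the edgeR test here (0% of 14690), although 2294 had an unadjusted p under 0.05, and DESeq2 called 90 and limma-voom 0. The libraries of NR4A2 with lactate ran from 17.3 to 46.4 CPM and those with both agents from 17.7 to 23.9 CPM, and without lactate replicate 1 the log2 fold change was -0.20 (edgeR adjusted p 0.79). The difference between the lactate responses with and without the inhibitor had a log2 value of -0.38 (SE 0.27) for NR4A1, -0.47 (SE 0.36) for NR4A2 and 0.13 (SE 0.24) for NR4A3. The 95% intervals ran from -0.97 to 0.21, from -1.25 to 0.31 and from -0.40 to 0.66, and no test is given because the libraries that chose NR4A3 are part of them.

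**Figure D2:**
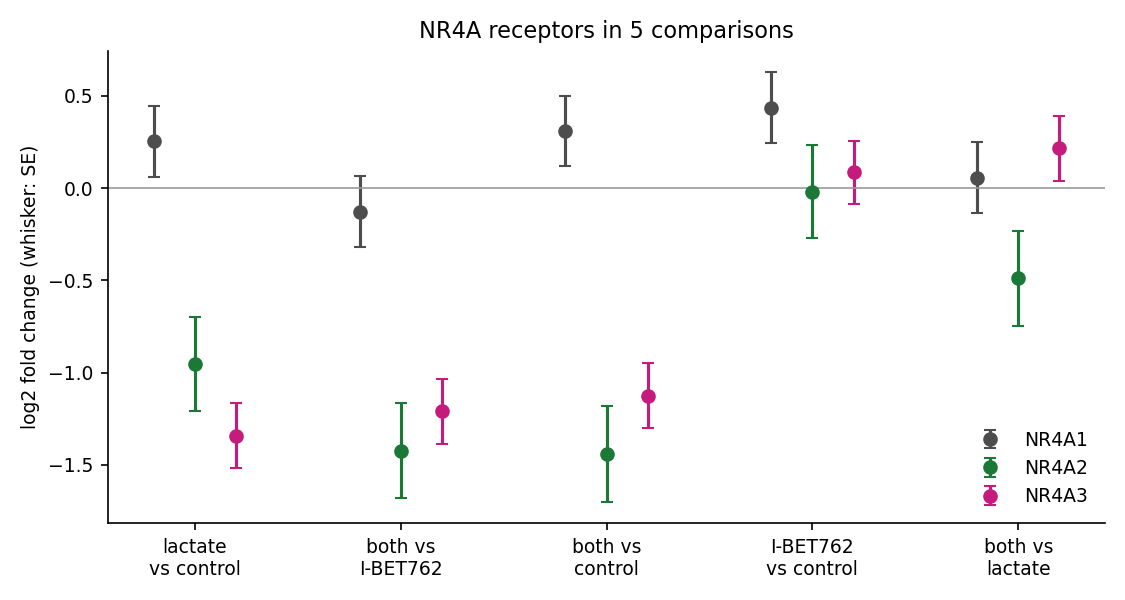
Log2 fold change of each receptor (y axis, whisker for the SE) in the 5 comparisons of groups (x axis), where "both" stands for lactate with I-BET762. NR4A2 and NR4A3 lie between -1.44 and -0.95 in the 3 comparisons of lactate-treated cells with cells that had no lactate, and within 0.49 of 0 in the 2 comparisons that differ by the inhibitor alone.

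Setting 2 receptors of the same library against each other removes the scaling of the library. The log2 ratio of NR4A2 to NR4A1 was -0.76, -0.57, -0.82 and -0.78 in the I-BET762 replicates and -1.39, -1.67, -2.24 and -2.66 in those given both agents. The log2 ratio of NR4A3 to NR4A1 was -1.18, -1.17, -0.67 and -0.61 with I-BET762 and -1.86, -1.97, -1.75 and -2.26 with both. In each of these ratios the 4 libraries with lactate lay below the 4 without it. The mean log2 ratio dropped by 1.26 for NR4A2 and by 1.05 for NR4A3 (two-sided exact permutation test, p = 0.0286 each, the smallest that 4 against 4 libraries can give, adjusted p 0.0429 over 3 ratios). This test was chosen after the values had been seen. Both ratios are taken to NR4A1, so they are not independent results. By level alone, 11.3% of all tested genes separated these groups as lower. The share of genes whose ratio to NR4A1 separates them was not computed. The log2 ratio of NR4A3 to NR4A2 was -0.18 ± 0.39 and 0.03 ± 0.48 (SD, n = 4 each), a difference of 0.21 that did not exceed the spread (exact permutation p = 0.514).

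Without the inhibitor the ratios are described only. The log2 ratio of NR4A3 to NR4A1 was -0.52 ± 0.50 in control and -2.18 ± 0.58 with lactate, with no overlap (SD, n = 4 each). That of NR4A2 to NR4A1 was -0.25 ± 0.43 and -1.58 ± 0.78, also with no overlap. The log2 ratio of NR4A3 to NR4A2 was more variable with lactate, where replicate 1 stood at -1.80 and replicate 3 at 0.25. Lactate replicate 1 had the highest NR4A2 of the lactate libraries, though below every library without lactate, and the lowest NR4A3 of all 16.

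**Figure D3:**
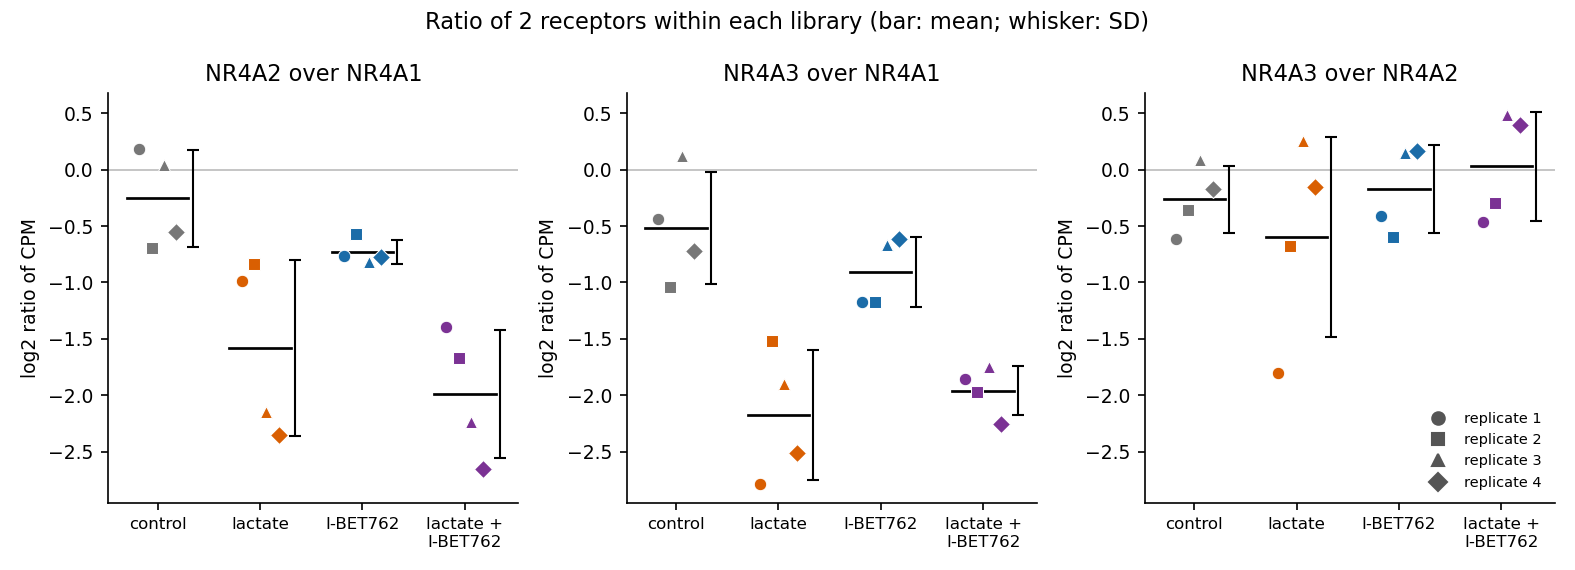
Log2 ratio of the CPM of 2 receptors within each library (y axis) by group (x axis), with 1 point per library, a bar at the mean and a whisker for the SD. Both ratios to NR4A1 are lower in the groups given lactate, and the ratio of NR4A3 to NR4A2 overlaps across the 4 groups.

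Levels of different genes were compared per length of their exons. On the scale of CPM per kilobase of annotated exon, control cells had 14.5 ± 3.07 of NR4A2, 9.48 ± 2.31 of NR4A1 and 7.48 ± 0.73 of NR4A3 (SD, n = 4 each). With lactate the order was NR4A1 at 11.3 ± 1.61, NR4A2 at 7.52 ± 3.56 and NR4A3 at 2.94 ± 0.77. The I-BET762 libraries had 14.3 ± 2.35 of NR4A2, 12.8 ± 1.11 of NR4A1 and 7.94 ± 1.12 of NR4A3, and those given both agents had 11.7 ± 3.40 of NR4A1, 5.33 ± 0.81 of NR4A2 and 3.43 ± 0.62 of NR4A3. Neighbours in this order overlapped in 3 places: NR4A1 and NR4A3 in control, NR4A1 and NR4A2 with lactate, where the libraries of NR4A2 ran from 4.37 to 11.7, and NR4A1 and NR4A2 with I-BET762 alone. The other neighbours did not overlap. The place of NR4A1 depends on the length used, since its annotated exons span 7295 bases in all while its coding transcript has 3511. Per kilobase of the coding transcript, control cells had 19.7 ± 4.80 of NR4A1, 16.5 ± 3.51 of NR4A2 and 8.28 ± 0.81 of NR4A3, so that NR4A1 and NR4A2 overlapped and NR4A1 no longer stood below NR4A2. With I-BET762 the order turned, to 26.6 ± 2.31 of NR4A1 (lowest library 24.4) above 16.3 ± 2.68 of NR4A2 (highest library 20.1). With lactate present, both lengths gave the order NR4A1, NR4A2, NR4A3, and NR4A3 was the lowest of the 3 means in every group by both lengths.

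Libraries differed in how their counts depended on GC content and gene length, and the trend on GC content was higher in lactate than in control libraries. Across genes, Spearman's rho between a library's deviation and GC content was -0.55 to -0.30 in control and -0.02 to 0.32 with lactate. For I-BET762 it was -0.18 to 0.17, and for both agents 0.06 to 0.43. For exon length, lactate replicates 1 and 4, which had the lowest NR4A3 levels of all, stood at a rho of -0.40 and -0.42, replicates 2 and 3 at 0.24 and 0.10, and the controls at 0.03 to 0.27. GC content was taken from the longest annotated transcript of each gene. NR4A1 has 59.8%, higher than 85.7% of tested genes, whereas NR4A2 has 47.9% and NR4A3 46.9%, near the middle. With offsets for both trends, the log2 fold changes for both agents against I-BET762 were -1.42 for NR4A2, -1.19 for NR4A3 and -0.24 for NR4A1, and those for lactate against control were -0.89, -1.19 and 0.06. The lower levels of NR4A2 and NR4A3 were thus about as large after the correction.

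Of the genes beside the receptors, 6 were tested, 4 of them protein-coding. ACVR1B and ATG101 beside NR4A1, GPD2 beside NR4A2, and STX17 beside NR4A3 are the protein-coding ones, and in both agents against I-BET762 their log2 fold changes were 0.05, -0.06, -0.30 and -0.30, with edgeR adjusted p of 0.361 or more. The noncoding LINC01876 beside NR4A2 and STX17-DT beside NR4A3 had 0.03 and -0.23 (adjusted p 0.979 and 0.795). In lactate against control GPD2, the mitochondrial glycerol phosphate dehydrogenase, fell by 0.55 on the log2 scale (edgeR adjusted p 0.0272). Of all tested genes 23.7% passed in that comparison, and this call was not followed through the alternative settings. STX17 had -0.51, ACVR1B -0.12, ATG101 0.33, LINC01876 -0.18 and STX17-DT 0.41, with adjusted p of 0.0802 or more for these 5.

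Over the 16 libraries, the gene whose level was most like that of NR4A3 was ZCCHC2, with a Pearson r of 0.98 between log2 CPM values, followed by the neutral amino acid transporter SLC1A4 (0.96), LONRF2 (0.96), NT5C2 (0.95) and VSIG10 (0.95). ZCCHC2 averaged 48.8 CPM in control, 27.2 with lactate, 50.7 with I-BET762 and 30.3 with both, and SLC1A4 averaged 50.6, 23.0, 53.8 and 23.7 CPM. For NR4A2 the nearest were the splicing regulator CELF1 (0.95), PRPF4B (0.95), the mitochondrial helicase TWNK (0.95), ZNF721 (0.94) and ACTR3B (0.93). The nearest to NR4A1 were C19orf48P (0.83), the exosome subunit EXOSC5 (0.83), RAD9A (0.82), CHMP1A (0.82) and CLTB (0.81). These are the highest among 10671 genes averaging 5 CPM or more, and the 16 points share the division into groups with and without lactate. NR4A2 and NR4A3 themselves had an r of 0.72 over 16 libraries, but -0.46 within the 8 given lactate and -0.23 within the 8 without it. Each of these sets of 8 pools 2 groups.

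Genes that act on NR4A transcription formed a list of 31, of which 30 were tested. It held CREB and its coactivators, protein kinase A subunits, MEF2 factors and the class IIa histone deacetylases that bind them, serum response factor with its partners, ERK kinases, and calcineurin with its NFAT targets. For both agents against I-BET762, 1 of its 30 tested members rose, 0 fell, and their median log2 fold change was -0.08, beside 0.0049 for all tested genes. Of all tested genes 4.9% were called, 3.34% as higher and 1.57% as lower. With the 2 groups fitted alone 5 of the 30 were called, beside 2535 of all genes. The member that rose was MAPK3, the kinase ERK1, at 0.51 (SE 0.14, edgeR adjusted p 0.0443), and this call was lost under 15 of 27 alternatives (adjusted p up to 0.156), among them leaving out any library of the 2 groups or control replicate 2 or 4. CREB1 had 0.22 (SE 0.12, adjusted p 0.339), MEF2D -0.27 (SE 0.15, adjusted p 0.359), SRF -0.24 (adjusted p 0.148) and CREM -0.38 (SE 0.19, adjusted p 0.29). In lactate against control 3 members rose and 2 fell, with MAPK3 at 0.67 and the SRF partner ELK4 at -0.59 (edgeR adjusted p 0.00413 and 0.00502), while 23.7% of all genes passed, 13.6% as higher and 10.1% as lower. The call of MAPK3 was lost with GC and length offsets (adjusted p up to 0.245), and that of ELK4 when the groups were fitted alone (adjusted p 0.0564).

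The list of co-regulators and binding partners of the NR4A proteins held 18 genes, such as the corepressor NCOR1, the demethylase KDM1A and the kinase AKT1. For both agents against I-BET762 edgeR called 0 of the 18, beside 4.9% of all genes. Of the 18, 1 had an unadjusted p under 0.05, DESeq2 called 1 and limma-voom 0. With the 2 groups fitted alone 4 of the 18 were called, beside 2535 of all genes. The smallest adjusted p was that of CTNNB1, which encodes beta-catenin, at -0.35 (SE 0.12, edgeR adjusted p 0.0866). In lactate against control 1 of the 18 rose and 3 fell, beside 23.7% of all genes called. CTNNB1 stood at -0.49 there (edgeR adjusted p 0.00745), a call lost under 3 of 27 alternatives. Of the retinoid X receptors that pair with NR4A1 and NR4A2, RXRA had 0.17 (SE 0.16, edgeR adjusted p 0.617) for both agents against I-BET762. In lactate against control, where 23.7% of all genes were called, RXRA rose by 0.52 (SE 0.16, edgeR adjusted p 0.0288), a call lost under 9 of 27 alternatives (adjusted p up to 0.1), among them leaving out control replicate 2 or 3 or lactate replicate 2, 3 or 4. RXRB had 0 counts and RXRG 1 count over all libraries and were not tested, which was not read as absence of their transcripts.

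Reported targets of the family came next, and 13 of 24 were expressed enough to be tested. For both agents against I-BET762, 1 rose and 1 fell, beside 4.9% of all genes called (3.34% higher, 1.57% lower), and their median log2 fold change was -0.32, beside 0.0049 for all genes. SLC2A4, the insulin-regulated glucose transporter, rose by 0.92 (SE 0.25, edgeR adjusted p 0.0384), with 2.28 ± 0.17 CPM under I-BET762 and 4.33 ± 1.55 CPM under both (SD, n = 4 each). ENO3, the muscle enolase, fell by 0.66 on the log2 scale (SE 0.15, edgeR adjusted p 0.0155), from 11.6 ± 0.83 to 7.31 ± 1.19 CPM. The call of SLC2A4 was lost under 11 of 26 alternatives (adjusted p up to 0.168), among them leaving out control replicate 1 or 4 or any library of the 2 groups but replicate 1 given both agents. That of ENO3 was lost without replicate 3 or 4 given both agents (adjusted p up to 0.0686), and both calls were lost without the 2 libraries that HEXIM1 set apart. In lactate against control 2 targets rose and 1 fell, beside 23.7% of all genes called. SLC2A4 had a log2 fold change of 0.92 there (edgeR adjusted p 0.0146) and ENO3 one of -0.18 (adjusted p 0.382).

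The NR4A genes were also set beside 31 tested immediate early and CREB-induced genes, the class to which they belong. For both agents against I-BET762, 1 of these rose and 0 fell, beside 4.9% of all genes called, and their median log2 fold change was 0.21, beside 0.0049 for all genes. It was JUN, a subunit of the AP-1 transcription factor, which rose by 0.62 (SE 0.13, edgeR adjusted p 0.0106), from 59.4 ± 6.36 to 91.6 ± 9.91 CPM (SD, n = 4 each). Its direction was opposite to that of NR4A2 and NR4A3 in the same libraries. FOS had 1.03 (SE 0.73, adjusted p 0.477), EGR1 1.11 (SE 0.65, adjusted p 0.377) and JUNB 0.72 (SE 0.23, adjusted p 0.0855), with wide spreads between libraries. NFIL3 had 0.34 (edgeR adjusted p 0.107). DUSP5 had the lowest value of the list, -0.51 (edgeR adjusted p 0.13), and 8 of the 31 were below 0. In lactate against control 8 of the 31 rose and 1 fell, beside 23.7% of all genes called, and JUN was 0.74 higher (SE 0.13, edgeR adjusted p 0.00155). With GC and length offsets 4 of the 31 were called, beside 2242 of all 14690 genes, and with the 2 groups fitted alone 2 were, beside 889 of all genes.

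Of the 45 other nuclear receptors 29 were tested. For both agents against I-BET762, 1 rose and 1 fell, which is 6.9% called beside 4.9% of all genes, and their median log2 fold change was -0.07. RORA, an orphan receptor that activates clock and lipid genes, rose from 5.50 ± 0.27 to 14.5 ± 2.31 CPM (SD, n = 4 each), a log2 fold change of 1.40 (SE 0.23, edgeR adjusted p 0.00178) that held under all 27 alternatives. NR1D2, the clock repressor REV-ERB beta, fell by 0.61 on the log2 scale (SE 0.16, edgeR adjusted p 0.0315), a call lost when any library of these groups but I-BET762 replicate 1 was left out (adjusted p up to 0.114). ESR1 had a lower value than either NR4A gene, -1.60, but its SE was 0.65 and its level at most 1.33 CPM in any library (edgeR adjusted p 0.173). Among the receptors that passed the test, NR4A2 and NR4A3 had lower log2 fold changes than NR1D2, the only other one that fell. This order is a description only, because NR4A3 was chosen for its fall with lactate in other libraries. In lactate against control 6 of the 29 rose and 1 fell, 24.1% beside 23.7% of all genes, with RORA at 1.11 (SE 0.22, edgeR adjusted p 0.00339) and NR1D2 at -0.73 (SE 0.16, edgeR adjusted p 0.00465).

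**Figure D4:**
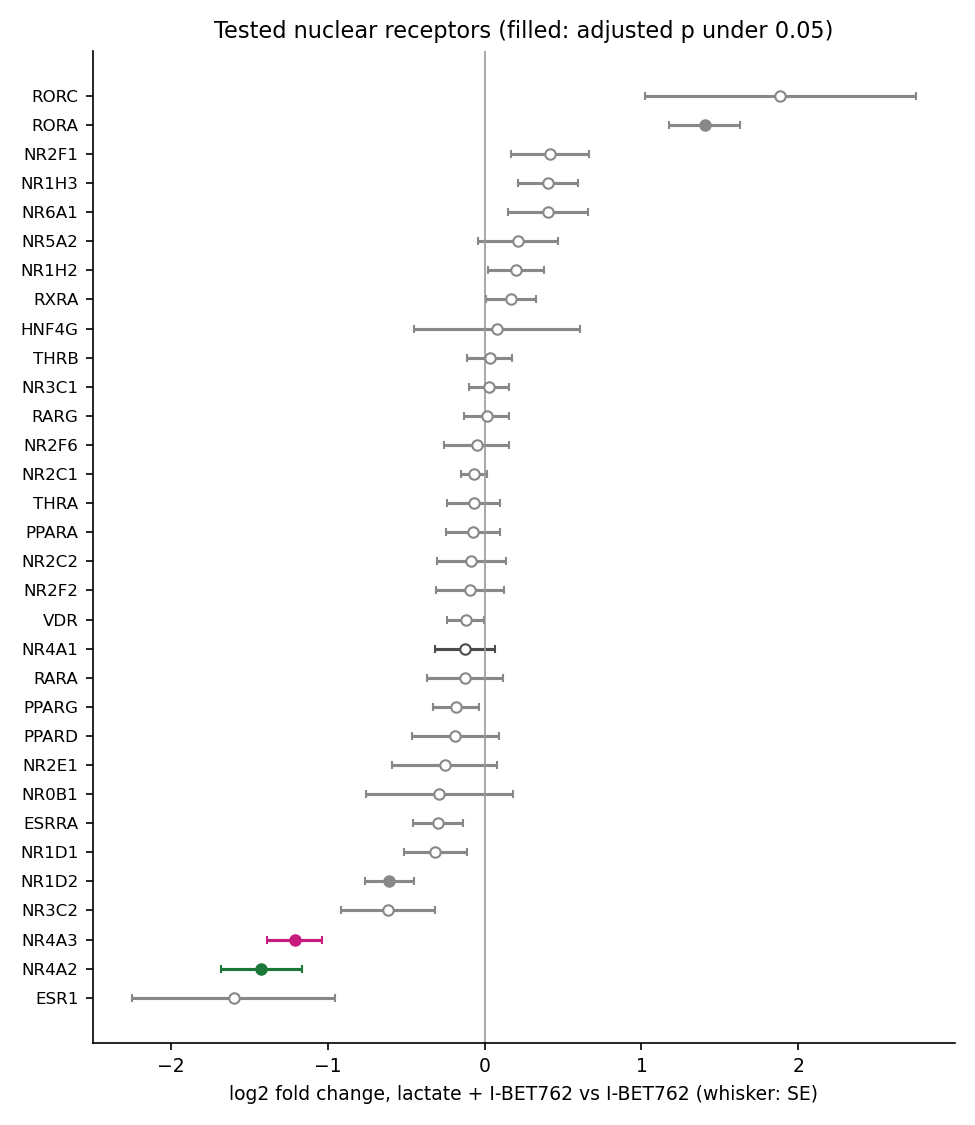
Log2 fold change of the 32 tested nuclear receptors for both agents against I-BET762 (x axis, whisker for the SE), ordered by value (y axis), with filled points for an edgeR adjusted p under 0.05 and the NR4A genes in colour (NR4A1 dark grey, NR4A2 green, NR4A3 magenta). The filled points are RORA on the right and NR1D2, NR4A3 and NR4A2 on the left, and NR4A1 lies near 0.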

How the data were processed

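The authors deposited raw counts for each Ensembl gene, 1 column per library, from polyadenylated RNA of 16 DU145 samples. Libraries took 800 ng of RNA and a strand-marking kit, with 75-base single-end reads, per the labels' protocols. The tools named include STAR 2.6.1c and DESeq, and the builds GRCh38.p12 and hg38, per the submitters' processing notes. How reads were counted, with which strand setting and annotation, is not given in the sources used here, so counts of NR4A1 and its antisense partner may be mixed. Symbols, coordinates and exon lengths came from GENCODE 29 (58735 of 64792 identifiers matched), promoter windows from RefSeq (GRCh38.p14). Windows were matched for NR4A1 and NR4A3.

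Genes were kept by filterByExpr (minimum count 10, minimum total 15), which left 14690, scaled by TMM and fitted in 1 edgeR 4.0.16 quasi-likelihood model of the 4 groups (R 4.3.3, all 16 libraries, 12 residual degrees of freedom). Tests are two-sided, with Benjamini-Hochberg adjustment over all genes at 0.05. CPM uses TMM-scaled sizes. An SE is the log2 fold change divided by the square root of F, and 95% intervals use the t distribution with 12 degrees of freedom. Tested on simulated counts with 14690 genes, the method called 57 of 100 genes changed 2-fold, 24 of 100 changed 1.5-fold and 7 unchanged ones. GC content and exon length were known for 99.4% of tested genes.

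The members, the gene lists and the comparisons were chosen with earlier results of these data known. The text names the NR4A genes, up to 4 genes of each list with the smallest p in both agents against I-BET762 and up to 4 in lactate against control, the 5 genes most like each receptor, overlapping genes and HEXIM1. The neighbouring genes, and CREB1, MEF2D, FOS, EGR1 and RXRB and RXRG, were named beyond that rule after values were seen. Of the marker lists, 2 of 7 tested epithelial markers and 1 of 3 tested markers of other cell types passed in lactate against control, and 0 in both agents against I-BET762, where DESeq2 called 0 and 1 and limma-voom 0 and 0, and 0 and 1 had an unadjusted p under 0.05. Each pair of libraries in a group differed by more than counting noise, so all were kept as separate replicates. The closest pair was I-BET762 replicates 3 and 4, at a chi-square per gene of 2.07, where the next closest had 4.08. The p-values measure the spread between these replicates. Alternatives were RLE or total-count scaling, 2 other filters, DESeq2 1.42.0, limma-voom (limma 3.58.1), GC and length offsets, the compared groups alone, a replicate block, and leaving out libraries. An item of the epithelial marker list is not reported here.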

Additional observations from a re-analysis of the deposited data

Results flagged for a closer look

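HEXIM1, used to check the inhibitor labels, was at 135 CPM in the library labelled as control replicate 2, far from the other 3 controls (at most 77.4 CPM). It was the only one of 16 sets of 4 libraries examined (HEXIM1 and the 3 NR4A genes in 4 groups) with a library so far from the rest, and chance alone gives about 1 such set in 20. The NR4A levels of that library were 83.4 CPM for NR4A1, 51.7 for NR4A2 and 40.4 for NR4A3. Without it and the library labelled I-BET762 replicate 2, NR4A2 and NR4A3 were still called lower in both agents against I-BET762.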

How the results depend on the processing

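All log2 fold changes of NR4A2 and NR4A3 for both agents against I-BET762 kept their direction and their call under the 27 alternatives, with adjusted p up to 0.0243 and 0.0051. Values near 0 changed sign. For NR4A2 in I-BET762 against control the value was 0.044 with GC and length offsets, 0.054 with these and the replicate block, 0.0057 with the groups fitted alone, -0.18 without the 2 libraries that HEXIM1 set apart, and -0.13 to 0.14 when leaving out 1 library. For NR4A1 in both agents against lactate it was -0.11 with the offsets, -0.11 with offsets and block, and -0.15 to 0.18 when leaving out 1 library. For NR4A1 in both agents against control it was -0.054 and -0.059 with the offsets, without and with the block. Of the immediate early genes in lactate against control, IER2 had -0.10 with the offsets and -0.11 with offsets and block, and JUND -0.032 with offsets and block. The cause was not tested. The ratios to NR4A1 ranged from -1.46 to -1.04 (NR4A2) and -1.14 to -0.95 (NR4A3) without 1 library, each at the exact p of 0.0571 that is the smallest 3 against 4 can give.

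The number of genes called ranged from 889 to 4950 for lactate against control (3486 as reported), 0 to 528 for I-BET762 against control (65), 285 to 2535 for both against I-BET762 (720), 0 to 197 for both against lactate (0) and 1704 to 4709 for both against control (3045). Same-numbered libraries deviated together with r over 0.1 in 16 of 24 pairs (lowest -0.26). Their median r was 0.17, beside -0.08 for pairs of unlike number, and 7 of 16 libraries were most like their own number. Whether the numbers mark pairs was not settled, and the main model did not take them as pairs. With the replicate block, NR4A2 had -1.43 (adjusted p 0.00105) and NR4A3 -1.22 (adjusted p 0.000934) for both agents against I-BET762.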
